A study of Mus musculus with 6 samples.

Results

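The transcription factor p53, encoded by Trp53, and 37 of its reported target genes were followed in mouse tumours treated with irinotecan. The 38 genes were taken by symbol from a deposited table of 25251 genes, and all 38 had a row. Of these, 35 passed the filter on low values (normalized counts averaging 10 or more across the 6 libraries) and entered the test. Perp, Ddit4l and Gdf15 did not, and are described by their reads.

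RNA was sequenced from 6 subcutaneous CT26 tumours grown in BALB/c mice, labelled WT. CT26 is an established mouse colon carcinoma line, so every tumour derives from the same cell line. The 3 control tumours came from mice given solvent. The 3 irinotecan tumours came from mice given CPT-11 (irinotecan) intraperitoneally at 25 mg/kg every 4 days, starting after randomization at a tumour volume of 100 mm3. Neither the age of the mice nor the interval between the final dose and collection is stated in the labels. The series' design text speaks of duplicates, whereas 3 samples are listed in each group, and all were used. Whether the 6 tumours came from 6 mice is not stated either, so the p-values describe spread among these samples, which may be technical.

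Irinotecan is converted to an inhibitor of topoisomerase I, which leaves DNA breaks at replication forks. In cells with working p53, DNA breaks stabilize the protein by releasing it from the ubiquitin ligase Mdm2. p53 then switches on genes for cell cycle arrest, apoptosis, DNA repair and metabolic adaptation, and also the genes of its own inhibitors, which close a feedback loop. Because p53 is controlled mainly as a protein, its own mRNA is a poor measure of its activity, and target genes are commonly read in its place.

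p53 binds DNA as a tetramer at a pair of adjacent 10-base sites, each matching the p53 decamer consensus, which reads the same on both strands. RefSeq promoter windows on GRCm38.p6, from 250 bases before to 50 bases after a start site, were found for 30 of the 38 members. A single decamer without a mismatch was present for 13 of these 30 genes (43.3%), against 9.55% of the 27025 genes with a window. A full site, meaning a pair of decamers at most 13 bases apart with at most 2 mismatches outside the central C and G of each, was present for 6 of the 30 (20%), against 4.71% of all genes. A match is a description of letters and not evidence of binding. The decamers of Ddit4l, Aen, Ei24 and Polk are not printed. The windows below belong to the 6 members with a full site and to Mdm2, Trp53 and Ppm1d. They are written 5′ to 3′ on the strand of the gene, with the decamers in capitals.
Ccng1, pair with 1 mismatch, chr11:40755457-40755486, minus strand: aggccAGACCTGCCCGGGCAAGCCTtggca
Rps27l, pair with 1 mismatch, chr9:66946291-66946320, plus strand: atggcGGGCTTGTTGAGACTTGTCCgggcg
Bax, pair with 2 mismatches, chr7:45467088-45467116, minus strand: gaTGACAAGCATatcccAGGCAAGCTTtg
Sesn1, pair with 2 mismatches, chr10:41887250-41887278, plus strand: tggGCGCTTGGCCttcAAGCTTGTTTttg
Cdkn1a, single decamer, chr17:29090918-29090947, plus strand: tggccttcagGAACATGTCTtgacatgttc
Mdm2, single decamer, chr10:117710925-117710954, minus strand: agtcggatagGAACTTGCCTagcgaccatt
Gadd45a, single decamer, chr6:67037428-67037457, minus strand: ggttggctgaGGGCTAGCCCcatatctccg
Trp53, single decamer, chr11:69580274-69580303, plus strand: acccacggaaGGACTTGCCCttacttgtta
Ppm1d, single decamer, chr11:85311112-85311141, plus strand: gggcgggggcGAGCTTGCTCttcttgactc

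The decamer printed for Cdkn1a is the downstream member of a full site without a mismatch, with 12 bases between its decamers. Cdkn1a was the 1 member with such a site, which 0.074% of all genes had. The 10 bases printed directly after the Cdkn1a decamer match the consensus except in the first base. They therefore form a pair with it too, with 1 mismatch and no bases between. The decamer printed for Gadd45a likewise belongs to a full site, with 2 mismatches and 11 bases between its decamers. The Ccng1 and Rps27l pairs have no bases between their decamers. The windows of Mdm4, Dglucy and Trp53i11 held no decamer without a mismatch, and Trp53inp1 had no window in the table.

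The libraries held 13940650 to 15656894 reads, recovered from the deposited values. Irinotecan replicate 1 stood apart: its log2 values correlated with the other libraries at 0.9324 to 0.9406 across genes, against 0.9748 to 0.9846 among the other 5. It had reads for 19040 genes, the others for 20571 to 21426. Estimates without it are therefore given beside those of all libraries where they differ most. Of the epithelial markers, Epcam, Krt19, Vil1 and Cdx2 had mean normalized counts under 10 and 3 of 7 were above that level. Summed macrophage markers (5 of 5 detected) ran from 8937 to 10396 in controls and from 4777 to 8150 with irinotecan. Summed endothelial markers (5 of 5) ran from 2000 to 2339 and from 1335 to 1718, so neither sum overlapped between the groups. Singly, 3 of 5 macrophage and 3 of 5 endothelial genes were lower in every irinotecan library (7.89% of all genes). Cd68, C1qa, Kdr and Vwf overlapped. Mrc1 made up much of the macrophage sum, with 4775 to 5191 in controls and 2409 to 3829 with irinotecan. The summed epithelial, leukocyte, fibroblast and skeletal muscle markers overlapped between the groups. In bulk tumour RNA, fewer cells of a type and less RNA per cell cannot be told apart, and the part of cell makeup in the differences below was not tested.

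Of the 35 tested members, 28 overlapped between irinotecan and control tumours and 7 did not. Values are normalized counts, that is, reads divided by a size factor for each library. Fold changes are limma estimates on the log2(normalized count + 1) scale, irinotecan against control. Trp53inp1, Ccng1, Dglucy and Mdm4 had higher values in every irinotecan library than in any control, Trp53i11 and Gadd45a had lower ones, and Cdkn1a, Mdm2 and Bax overlapped between the groups. No member passed limma's threshold of an adjusted p of 0.05 over all 14639 genes tested, and neither did any other gene (0% called). At an unadjusted limma p under 0.05 there were 4 members higher, where 2.68% of all genes were, and 2 lower, where 3.08% were (5.77% in either direction). The 3 irinotecan libraries all lay above the controls for 5 of 35 members (6.68% of all genes) and all below for 2 (7.89% of all genes, and 14.6% on either side). The median log2 fold change was 0.060 over the 35 members and -0.014 over all tested genes, and 22 of 35 members were positive, against 48.2% of all genes.

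**Figure D1:**
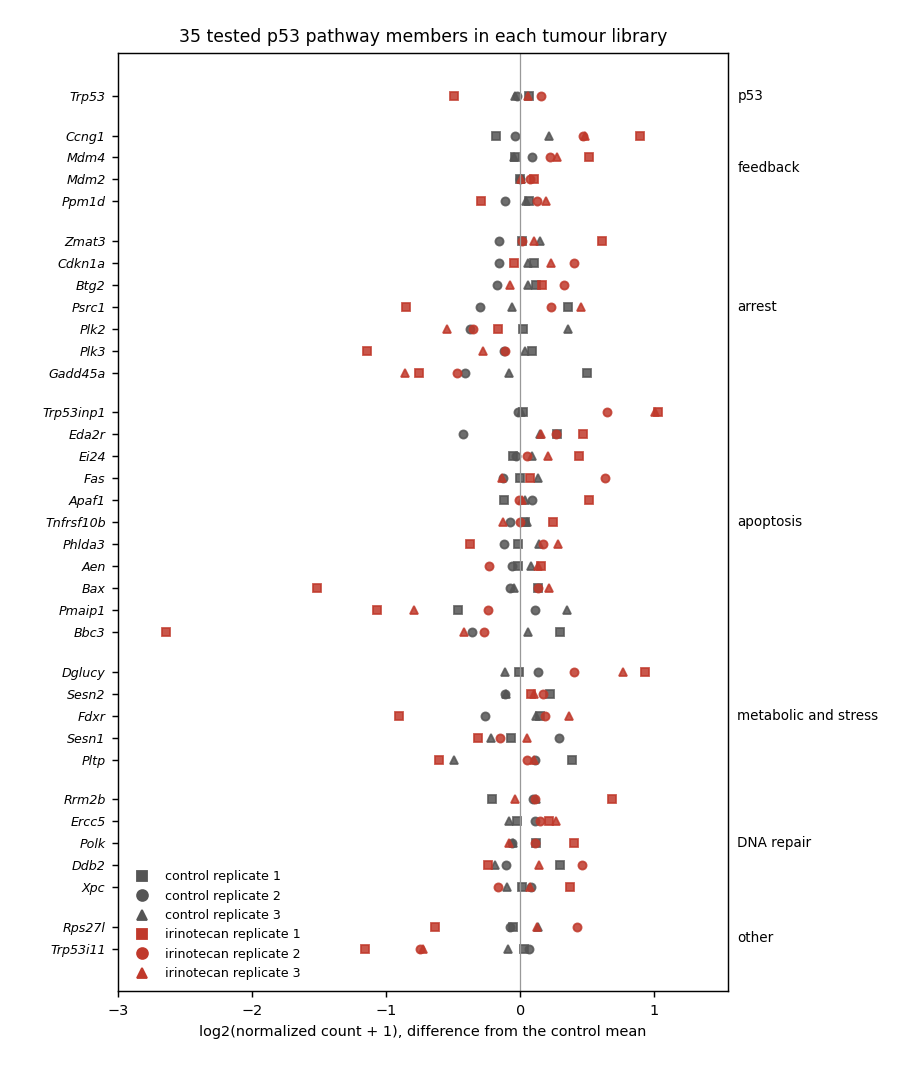
Each row is a tested member and each point a library, plotted as log2(normalized count + 1) minus the control mean, with controls in grey and irinotecan in red. Red points are clear of the grey ones for Trp53inp1, Ccng1, Dglucy, Mdm4 and Ercc5 on the right and for Trp53i11 and Gadd45a on the left, and irinotecan replicate 1 (red squares) is often the outermost point.

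The mRNA of p53 itself did not separate the groups. Trp53 (chromosome 11, 69580359 to 69591873 on GRCm38) had 2286, 2148 and 2124 normalized counts in controls, and the irinotecan libraries had 1551, 2438 and 2277. Irinotecan replicate 1 was the lowest library and replicate 2 the highest, so the groups overlapped. The log2 fold change was -0.092 (SE 0.182, limma adjusted p = 0.879), and it was 0.109 without irinotecan replicate 1.

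Among the feedback genes, which limit p53, the response was uneven. Mdm2, the ubiquitin ligase that p53 both induces and is degraded by, had 2826, 2832 and 2852 normalized counts in controls and 3048, 2985 and 2845 with irinotecan. The controls were almost identical, irinotecan replicates 1 and 2 lay above them, and replicate 3 lay inside their range. The log2 fold change of Mdm2 (chromosome 10, 117688875 to 117710758) was 0.060 (SE 0.115, limma adjusted p = 0.875), and its sign turned with quantile normalization (-0.00176) and with a trend on GC content and gene length removed (-0.024). Cyclin G1, encoded by Ccng1 (chromosome 11, 40748552 to 40755311), is an early p53 target that acts on Mdm2 through a phosphatase. Ccng1 had 2258, 2489 and 2966 normalized counts in controls and 4751, 3525 and 3576 with irinotecan. All irinotecan libraries were above all controls, and replicate 1 was the highest. The Ccng1 mean was 2571 ± 361 in controls against 3951 ± 694 in treated tumours (SD, n = 3 each). Its log2 fold change was 0.61 (SE 0.169, limma unadjusted p = 0.00616, adjusted p = 0.743), and 0.45 with the GC content and length trend removed.

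Mdm4, the relative of Mdm2 that masks the activation domain of p53, had 3412, 3720 and 3388 normalized counts in controls and 5003, 4087 and 4226 with irinotecan. The groups did not overlap, but the step from the highest control to the lowest irinotecan library was small. Its log2 fold change was 0.34 (SE 0.134, limma unadjusted p = 0.0351, adjusted p = 0.743), and 0.116 with the GC content and length trend removed. Ppm1d, the phosphatase Wip1 that dephosphorylates p53 and its activating kinases, had 341.2, 302.2 and 337.0 normalized counts in controls and 265.9, 356.4 and 372.0 with irinotecan. The lowest and the highest Ppm1d values were both irinotecan libraries, and the log2 fold change was 0.0070 (SE 0.181). So 4 of 4 feedback genes had a positive estimate (48.2% of all genes), 2 of them without overlap (6.68% of all genes). Mdm2 and Ppm1d overlapped between the groups. With the GC content and length trend removed, 3 of the 4 were positive, with a median of 0.062.

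**Figure D2:**
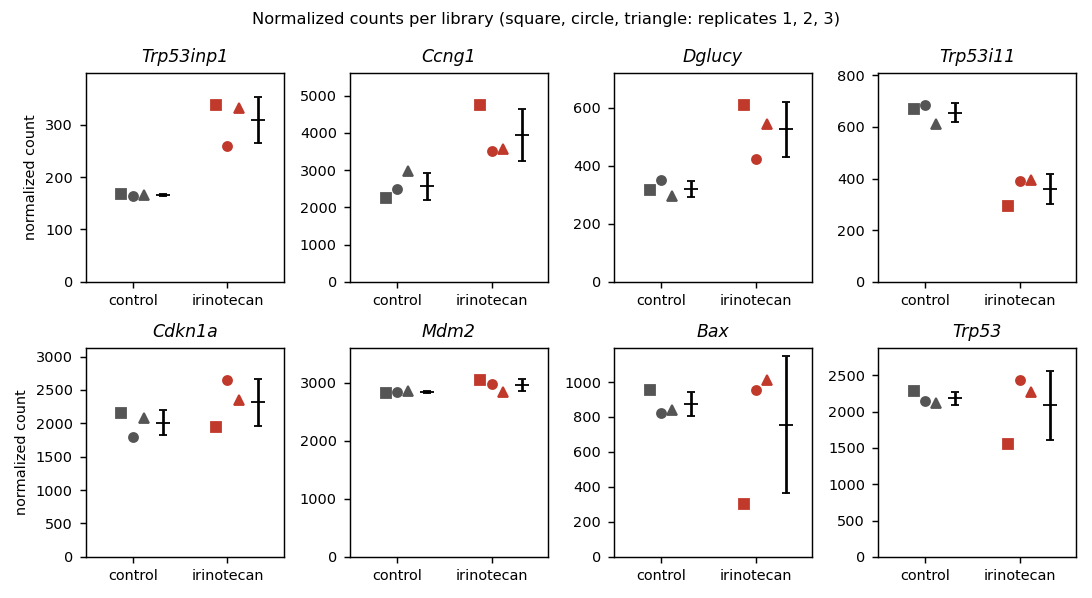
Normalized counts of 8 members in each library, with the mean and SD (n = 3) beside each group and every vertical axis starting at 0. Trp53inp1, Ccng1 and Dglucy are higher and Trp53i11 is lower in all irinotecan libraries, whereas Cdkn1a, Mdm2, Bax and Trp53 overlap between the groups.

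The arrest genes did not move together. Cdkn1a (chromosome 17, 29090976 to 29100727) encodes p21, the cyclin-dependent kinase inhibitor through which p53 stops the cell cycle. It had 2154, 1794 and 2086 normalized counts in controls and 1944, 2649 and 2356 with irinotecan. Irinotecan replicates 2 and 3 exceeded every control, while replicate 1 lay between the controls. The Cdkn1a mean was 2011 ± 191 in controls against 2316 ± 354 in treated tumours (SD, n = 3 each). Its log2 fold change was 0.20 (SE 0.155, limma unadjusted p = 0.240, adjusted p = 0.750), and without irinotecan replicate 1 it was 0.32 (unadjusted p = 0.0162, adjusted p = 0.393).

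Gadd45a (chromosome 6, 67035096 to 67037457), a stress protein that restrains the G2 to M transition, was lower. Gadd45a had 375.8, 199.7 and 251.8 normalized counts in controls and 157.1, 191.7 and 146.0 with irinotecan. The groups did not overlap, but control replicate 2 and irinotecan replicate 2 differed by few counts. The log2 fold change was -0.70 (SE 0.256, limma unadjusted p = 0.0251, adjusted p = 0.743), and -0.46 with the GC content and length trend removed. Without control replicate 1 it was -0.45. A noncoding transcript on the opposite strand, E230016M11Rik, overlaps 859 bases of the Gadd45a span, and no source used here gives the strand setting of the counting.

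The polo-like kinases of stress responses also had negative estimates. Plk2 had 2706, 2052 and 3423 normalized counts in controls and 2380, 2090 and 1829 with irinotecan. The controls spread widely, and irinotecan replicates 1 and 2 fell inside their range (log2 fold change -0.35, SE 0.201, limma unadjusted p = 0.114). Plk3 had 494.5, 427.6 and 476.4 normalized counts in controls and 209.5, 430.5 and 383.1 with irinotecan. Replicate 1 was far the lowest for Plk3, and the log2 fold change of -0.51 (SE 0.265, limma unadjusted p = 0.0870) was -0.196 without it. The other arrest members overlapped between groups: the antiproliferative gene Btg2 (log2 fold change 0.135), the RNA-binding zinc finger gene Zmat3 (0.24, or 0.056 without irinotecan replicate 1) and the microtubule-associated gene Psrc1 (-0.056, or 0.34 without irinotecan replicate 1). In all, 3 of 7 arrest genes had a positive estimate (48.2% of all genes), and 4 of 7 without irinotecan replicate 1 (49.6%).

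Among the 12 genes assigned to apoptosis, Trp53inp1 stood out. Trp53inp1 (chromosome 4, 11156431 to 11174379) encodes a nuclear stress protein that promotes p53 phosphorylation and autophagy. It had 167.3, 163.1 and 165.6 normalized counts in controls and 337.8, 259.1 and 332.4 with irinotecan. The controls were tightly grouped, and even the lowest irinotecan library was far above them. The mean was 165.3 ± 2.1 in controls against 309.8 ± 44.0 in treated tumours (SD, n = 3 each), or 187% of the control mean. Its log2 fold change was 0.89 (SE 0.178, limma unadjusted p = 0.000927, adjusted p = 0.662), and 0.72 with the GC content and length trend removed.

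Trp53inp1 did pass the threshold of other fits. The authors' deposited table gives it an adjusted p of 0.0262 and Trp53i11 an adjusted p of 0.0122, and these were the members among its 47 genes with an adjusted p under 0.05 (0.186% of genes with a p-value, 0.111% higher and 0.0753% lower). DESeq2 on the recovered reads gave nearly the authors' own values (Trp53inp1 log2 fold change 0.905 in both), so it is not a separate check. It called the same 2 members (0.336% of genes called, 0.2% higher and 0.136% lower). With estimated library weights limma called both (0.355% of genes, 0.205% higher and 0.15% lower), and edgeR with TMM scaling called 0 members (0% of genes). Without irinotecan replicate 1, DESeq2 called Trp53inp1, Trp53i11 and Ccng1 (adjusted p = 0.0159, 0.000585 and 0.0433, with 1.1% of genes called, 0.541% higher and 0.563% lower). DESeq2 calls are given as an alternative to limma, the main test. On simulated data DESeq2 called more unchanged genes than limma or edgeR did. Those data held no library set apart like irinotecan replicate 1, so they cannot rank the fits here. Over all alternatives the adjusted p of Trp53inp1 ran from 0.0159 to 0.989.

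For the pore-forming and BH3-only genes irinotecan replicate 1 was the lowest library throughout. Bax, whose product perforates mitochondria, had 952.6, 824.9 and 841.5 normalized counts in controls and 303.9, 954.5 and 1012 with irinotecan. Replicate 1 was far below every other library, and replicates 2 and 3 were above the highest control, replicate 2 barely so. The log2 fold change of Bax (chromosome 7, 45461697 to 45466898) was -0.39 (SE 0.411, limma adjusted p = 0.783), and 0.173 without that library. Bbc3, which encodes the BH3-only protein Puma, had 346.8, 219.6 and 293.4 normalized counts in controls and 44.2, 233.1 and 209.8 with irinotecan. Replicate 1 was again the lowest, and replicate 2 lay within the control range. The log2 fold change of Bbc3 was -1.11 (SE 0.571, limma unadjusted p = 0.0855) and -0.35 without irinotecan replicate 1. Pmaip1, which encodes the BH3-only protein Noxa, was low throughout, with 27.1, 40.8 and 48.4 normalized counts in controls and 17.5, 31.8 and 21.3 with irinotecan (log2 fold change -0.70, SE 0.389, limma unadjusted p = 0.107). The Pmaip1 groups overlapped through control replicate 1 and irinotecan replicate 2.

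Death receptors and other apoptosis genes showed no separation. The log2 fold changes were 0.190 for Fas, 0.038 for the TRAIL receptor gene Tnfrsf10b and 0.30 for the ectodysplasin receptor gene Eda2r. They were 0.173 for Apaf1, the scaffold of the apoptosome, 0.23 for the endoplasmic reticulum gene Ei24, 0.019 for the nuclease gene Aen and 0.027 for Phlda3, a repressor of Akt. All 7 overlapped between the groups. With irinotecan replicate 1 left out the estimates were 0.25 for Fas, -0.065 for Tnfrsf10b and 0.21 for Eda2r. They were then 0.0012 for Apaf1, 0.131 for Ei24, -0.050 for Aen and 0.23 for Phlda3, so Tnfrsf10b and Aen changed sign. Perp, a membrane protein gene of cell junctions, had 0 reads in each control, which allows up to 3 reads a library, and 10, 2 and 1 reads in irinotecan replicates 1, 2 and 3. Only replicate 1 exceeded that limit, so no fold is given.

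In the metabolic and stress group Dglucy was the member that separated. Dglucy (chromosome 12, 100779057 to 100896981) encodes the mitochondrial D-glutamate cyclase. It had 316.9, 349.2 and 294.4 normalized counts in controls and 608.9, 421.9 and 543.3 with irinotecan. All irinotecan libraries were above all controls. The Dglucy mean was 320.2 ± 27.6 against 524.7 ± 94.9 (SD, n = 3 each), and the log2 fold change was 0.70 (SE 0.181, limma unadjusted p = 0.00439, adjusted p = 0.743), and it was 0.58 without irinotecan replicate 1. The sestrins, which restrain mTORC1 under stress, went different ways. Sesn1 had 394.5, 505.0 and 355.4 normalized counts in controls and 332.7, 371.8 and 427.7 with irinotecan (log2 fold change -0.140, SE 0.186). Sesn2 had 617.0, 489.3 and 490.9 and then 558.6, 596.2 and 568.6 (0.118, SE 0.151). Both overlapped. The ferredoxin reductase gene Fdxr (-0.119) and the phospholipid transfer protein gene Pltp (-0.150) were negative in the fit of all libraries and positive without irinotecan replicate 1 (0.28 and 0.079). Pltp shares 1515 bases of its span with Ctsa on the opposite strand.

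The remaining metabolic members were at the limit of detection. The mTOR inhibitor gene Ddit4l had 0, 1 and 0 reads in controls and 11, 0 and 4 with irinotecan. The secreted stress cytokine Gdf15 had 23, 4 and 3 reads in controls and 0, 8 and 11 with irinotecan. Irinotecan replicate 2 had no Ddit4l read and replicate 1 no Gdf15 read, so neither gene separated the groups.

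The DNA repair genes had small positive estimates, 5 of 5 with all libraries (48.2% of all genes) and 4 of 5 without irinotecan replicate 1 (49.6%). Ercc5, the endonuclease of nucleotide excision repair, had 767.5, 842.7 and 738.8 normalized counts in controls and 907.7, 864.0 and 941.6 with irinotecan. Its groups did not overlap, with a log2 fold change of 0.21 (SE 0.129, limma unadjusted p = 0.143, adjusted p = 0.743). Rrm2b, the p53-inducible ribonucleotide reductase subunit, had 572.1, 705.7 and 718.5 normalized counts in controls and 1065, 715.6 and 642.6 with irinotecan. Replicate 1 alone exceeded the controls for Rrm2b, and the log2 fold change of 0.25 (SE 0.209) was 0.035 without it. The translesion polymerase gene Polk had 877.8, 774.7 and 779.5 normalized counts and then 1068, 873.6 and 764.2 (0.142, SE 0.160). It overlapped too, as did the damage recognition genes Xpc (0.091) and Ddb2 (0.121). Leaving out irinotecan replicate 1 gave 0.014 for Polk, -0.050 for Xpc and 0.30 for Ddb2. Ddb2 shares 2527 bases of its span with Acp2 on the opposite strand.

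Trp53i11, named for its induction by p53, was lower in every irinotecan library. Trp53i11 (chromosome 2, 93187548 to 93201759) had 668.4, 684.8 and 612.9 normalized counts in controls and 292.6, 389.1 and 395.3 with irinotecan. The highest irinotecan library was well under the lowest control. The mean was 655.4 ± 37.7 in controls against 359.0 ± 57.6 in treated tumours (SD, n = 3 each), or 54.8% of the control mean. This was the smallest unadjusted p among the members (log2 fold change -0.88, SE 0.167, limma unadjusted p = 0.000664, adjusted p = 0.662), and the estimate stayed between -0.95 and -0.72 in all alternatives run. Rps27l, a ribosomal protein paralogue that p53 induces, had 1006, 992.2 and 1145 normalized counts in controls and 672.5, 1401 and 1141 with irinotecan. Both the lowest and the highest Rps27l values were irinotecan libraries (log2 fold change -0.029, SE 0.252). How reads shared with related ribosomal protein genes were counted is not known here.

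Set side by side, the role groups had different medians, but their order changed with the libraries used. The median log2 fold change was 0.198 for feedback, 0.142 for DNA repair, 0.038 for apoptosis, -0.056 for arrest and -0.119 for metabolic and stress genes. Without irinotecan replicate 1 these medians were 0.20, 0.035, 0.131, 0.056 and 0.137. Without control replicate 1 they were 0.187, 0.196, 0.054, 0.122 and 0.043, and without irinotecan replicate 3 the arrest median (-0.26) was below the metabolic one (-0.23). With the GC content and length trend removed they were 0.062, 0.068, 0.060, 0.069 and 0.046, so the role groups were nearly level. The members were assigned to roles by hand, some have several roles, and no test was made between the groups.

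**Figure D3:**
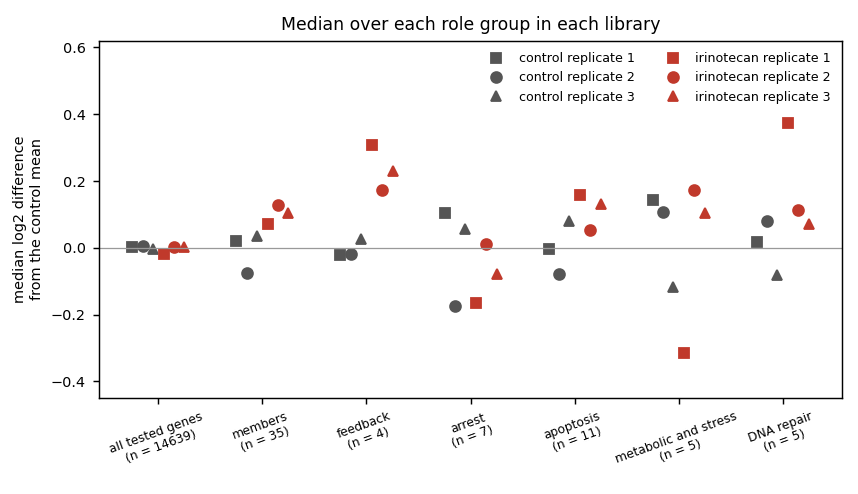
Median over the tested genes of each role group in each library, as the log2 difference from the control mean. The feedback medians of the irinotecan libraries (0.309, 0.174 and 0.229) lie above all control medians, while in the metabolic and stress group irinotecan replicate 1 (-0.314) is below and the other irinotecan libraries are above 0.

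Irinotecan replicate 1 was the lowest of the 6 libraries for 14 of the 35 tested members and the highest for another 14. No other library was the lowest for more than 6 or the highest for more than 6. The members where it was lowest had a median transcript GC content of 56.9%, and those where it was highest 46.0%. Across the 35 members its log2 difference from the control mean correlated with GC content at r = -0.69, against -0.45 and -0.25 for irinotecan replicates 2 and 3. These points share a library and the control mean, so the values are descriptive. The same counts and correlations were not computed over all genes, across which irinotecan replicate 1 also stood apart. Bbc3 had the highest GC content among the members named above (68.0%) and the largest shortfall, while Ccng1 (37.4%) and Trp53inp1 (40.1%) were among the poorest in GC.

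**Figure D4:**
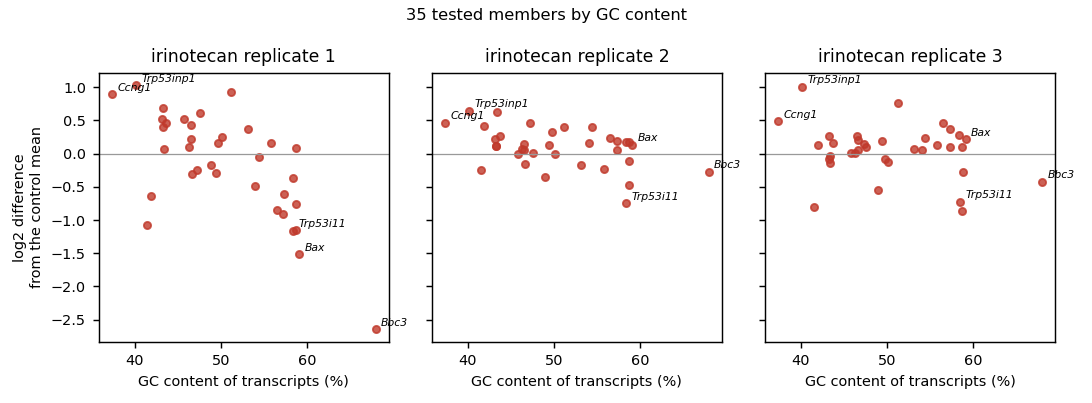
GC content of each tested member's transcripts against its log2 difference from the control mean, in 1 panel for each irinotecan library. In replicate 1 the points slope down toward Bax and Bbc3 at high GC content, and the slope is weaker in replicates 2 and 3.

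Leaving that library out, the members with an unadjusted limma p under 0.05 kept their direction. They were picked in a fit that shares the remaining libraries, so this is not a separate check. Trp53inp1 (log2 fold change 0.82, unadjusted p = 0.000480), Ccng1 (0.47, 0.00211), Dglucy (0.58, 0.00281), Mdm4 (0.25, 0.0265), Gadd45a (-0.67, 0.0194) and Trp53i11 (-0.74, 6.62e-05) all still had a limma unadjusted p under 0.05. Cdkn1a and Rps27l (0.27) were then added on the higher side and Plk2 (-0.45) on the lower side. That made 6 members higher and 3 lower, where 4.34% and 5.15% of all genes were (9.5% in either direction). Both remaining irinotecan libraries exceeded all controls for 10 members (12.8% of all genes) and lay under all controls for 2 (13.7%). The median over the members became 0.123, with 25 of 35 positive against 49.6% of all genes. No member passed after adjustment over all genes by limma, which called 2 genes in all, both higher (0.0137%). With all libraries and the GC content and length trend removed, the limma unadjusted p was 0.399 for Mdm4 and 0.131 for Gadd45a. In that fit it stayed under 0.05 for Trp53inp1, Ccng1, Dglucy and Trp53i11. The share of all genes under 0.05 in that fit was not computed, so these 4 members have no background beside them.

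**Figure D5:**
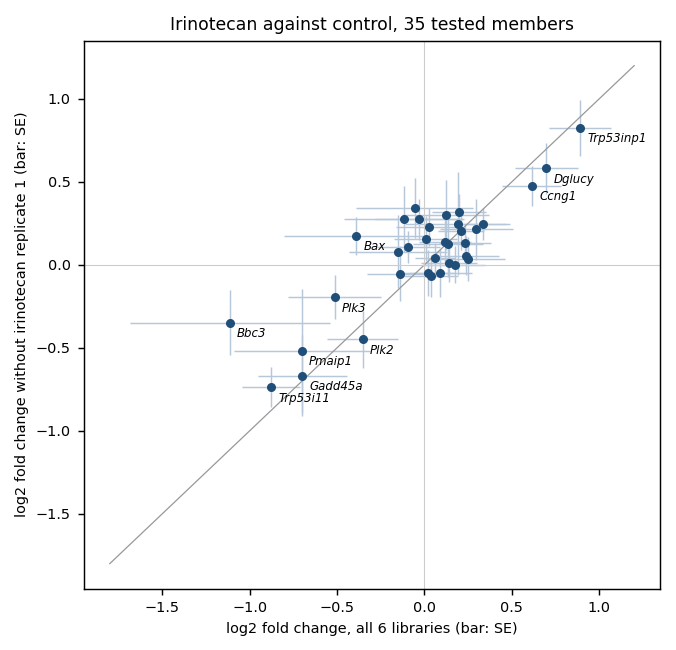
Log2 fold change of each tested member with all 6 libraries (horizontal) and without irinotecan replicate 1 (vertical), with SE bars and the line of equality in grey. Trp53inp1, Dglucy, Ccng1, Gadd45a and Trp53i11 stay near the line, whereas Bbc3, Bax and Plk3 move toward or past 0.

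The members covered a wide range of expression. In controls, scaled to the deposited gene length, Rps27l had the highest level (1284 normalized counts per kilobase), followed by Ccng1 (732.1), Phlda3 (667.0), Plk2 (607.3), Cdkn1a (566.1), Mdm2 (558.1), Bax (553.9) and Trp53 (540.4). Thus p21 and Mdm2 transcripts ranked 5 and 6 of the 38 members, on this length-scaled level, in tumours that had received solvent alone. Their rank among all genes was not computed. Trp53inp1 (25.5) and Fas (26.1) were low, and Pmaip1 (14.7) and Gdf15 (5.1) lower still. With irinotecan the length-scaled level of Ccng1 was 1125 and that of Trp53inp1 47.8.

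Other genes of the pathway were read from 3 fixed lists. Of 18 cofactors and modifiers of p53, 16 were tested, and 0 passed limma's threshold in either direction. An unadjusted limma p under 0.05 was found for 0 of them (5.77% of all genes). Estimates were positive for 7 of the 16 (48.2% of all genes), with a median of -0.032. The smallest unadjusted p values were those of the ubiquitin ligase gene Cop1 (log2 fold change -0.47), the damage mediator gene Trp53bp1 (0.31) and the p53 inhibitor gene Ppp1r13l (-0.26). Of 30 other reported p53 targets 28 were tested and 0 passed. At an unadjusted limma p under 0.05, 2 were higher (2.68% of all genes) and 0 lower (3.08%). Estimates were positive for 14 of the 28 (48.2% of all genes), with a median of 0.0097. In this list 19 were positive without irinotecan replicate 1 (49.6% of all genes), and the median was 0.087. Ephx1, the microsomal epoxide hydrolase, had 819.9, 739.2 and 547.1 normalized counts in controls and 959.0, 982.4 and 1391 with irinotecan, higher in every library (log2 fold change 0.66, SE 0.208, limma unadjusted p = 0.0125). The log2 fold change of Ephx1 passed in 1 alternative, DESeq2 without irinotecan replicate 1 (adjusted p = 0.00923). Abhd4, a lipid hydrolase gene, followed with 0.34 and the phosphatase gene Ptpn14 with 0.44.

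Genes that p53 represses through p21 and the DREAM complex, which drive mitosis, were not lower as a group. All 18 were tested and 0 passed. At an unadjusted limma p under 0.05, 1 was higher (2.68% of all genes) and 1 lower (3.08%). Estimates were positive for 12 of the 18 (48.2% of all genes), with a median of 0.103. The mitotic bridge protein gene Prc1 (0.32) and the topoisomerase gene Top2a (0.38) were higher in every irinotecan library. Mybl2, an activator of late cell cycle genes, was lower (-0.39). Of the 18, 3 were higher in every irinotecan library (6.68% of all genes) and 1 was lower in every one (7.89%). Leaving out irinotecan replicate 1, 16 of the 18 were positive (49.6% of all genes), with a median of 0.153.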

How the data were processed

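The table the authors deposited holds a normalized signal for every gene and library. Dividing each library by its lowest value above 0 gave whole numbers for 100% of values (tolerance 1e-06), so these are counts over a size factor and whole reads were recovered. The authors' log2 fold changes, p-values and mean signal per group are in the table, per the file headers. The submitters' processing notes name DESeq2 1.20.0, featureCounts 1.5.0-p3, HISAT2 2.0.5, fastp and CASAVA, and the build GRCm38 (mm10), with no role for each. Intervals and floors cover counting error only.

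The test was limma 3.58.1 (R 4.3.3) with its trend option, on log2(normalized count + 1), with the group as the only term, 3 against 3, Benjamini-Hochberg adjusted over the 14639 genes with a mean of at least 10. Such fold changes understate the change of low genes. Alternatives were DESeq2 1.42.0, edgeR 4.0.16, other scalings, pseudocounts and filters, library weights, a replicate block, a smooth trend on GC content (GENCODE M21 transcripts, 99.86% of genes) and gene length removed with mgcv 1.9.3, and each library left out. DESeq2 and edgeR without irinotecan replicate 1 were added after the data were seen. The fits were tested on simulated data with known changes. limma and edgeR stayed within the limit first set for false calls. DESeq2 did not, and the limit was then kept for limma and edgeR alone. The simulated counts held no library set apart like irinotecan replicate 1, so they cannot rank the fits on these data. Calls made by DESeq2 alone are still read with caution.

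The members and lists were chosen with earlier results of these data known. Values in every sample are given for Trp53, Cdkn1a, Mdm2, Ccng1, Bax and those 3 of each role group whose unadjusted p was smallest, and Rps27l and Trp53i11 are all of the last group. From each other list the 3 genes with the smallest unadjusted p are named. Values in every sample of Perp, Ddit4l and Gdf15 are given because they were not tested.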

Additional observations from a re-analysis of the deposited data

How the results depend on the processing

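Precision is limited by 3 samples a group and by irinotecan replicate 1. In 20 alternative settings, 19 of the 35 tested members kept the sign of their log2 fold change and 16 turned it in at least 1 setting. No member was called in the fit reported. DESeq2 called 28 genes higher and 19 lower (1 member each way), estimated library weights 30 and 22 (1 member each way), DESeq2 without irinotecan replicate 1 74 and 77 (2 members higher and 1 lower), and edgeR without it 2 higher. Leaving out each library in turn, limma called 0 to 2 genes higher and 0 lower, and 0 members.

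Over the libraries left out in turn, the median log2 fold change ran from 0.040 to 0.123 for the members, 0.187 to 0.23 for feedback, -0.26 to 0.122 for arrest, -0.0023 to 0.131 for apoptosis, -0.23 to 0.137 for metabolic and stress and 0.035 to 0.22 for DNA repair genes. The counts of members without overlap ran from 5 to 10 (higher) and from 2 to 5 (lower). Such counts cannot fall when a library is left out. Over all genes the shares were 6.68% higher and 7.89% lower with all libraries, and 12.8% and 13.7% without irinotecan replicate 1. They were not computed for the other libraries left out. Without irinotecan replicate 1 the medians over members, apoptosis and metabolic and stress genes were 0.129, 0.131 and 0.129 by DESeq2 and 0.131, 0.134 and 0.131 by edgeR. With the GC content and length trend removed, with or without the replicate block, feedback was at 0.062 and arrest at 0.069. With library weights arrest was at 0.072 and metabolic and stress at 0.107. The cause of these shifts was not tested.

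Libraries with the same replicate number did not deviate together: deviations from the group means correlated at -0.114, -0.0087 and -0.213 for numbers 1, 2 and 3. Deviations within a group of 3 sum to 0, so these values are tied to each other and cannot exclude a pairing. With the replicate number as a block limma called 0 genes higher and 0 lower, and the medians of the members and of every role group were unchanged, since the design is balanced.

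The signs that turned were these. With quantile normalization, the log2 fold change of Mdm2 was -0.00176 and Psrc1 at 0.017. With edgeR (TMM), edgeR (DESeq2-type factors) and DESeq2, Psrc1 was at 0.021, 0.020 and 0.020 and Rps27l at 0.035, 0.033 and 0.033. With the GC content and length trend removed, with or without the replicate block, Fdxr was at 0.046, Mdm2 at -0.024, Pltp at 0.025, Psrc1 at 0.069 and Tnfrsf10b at -0.027. With library weights, Aen was at -0.060, Bax at 0.088, Fdxr at 0.21, Psrc1 at 0.23, Rps27l at 0.27, Tnfrsf10b at -0.050, Trp53 at 0.083 and Xpc at -0.053. Without irinotecan replicate 1, DESeq2 and edgeR gave -0.042 and -0.038 for Aen, 0.170 and 0.174 for Bax, 0.27 and 0.27 for Fdxr, 0.32 and 0.32 for Psrc1, 0.28 and 0.28 for Rps27l, -0.066 and -0.062 for Tnfrsf10b, and 0.109 and 0.112 for Trp53, and DESeq2 gave -0.0016 for Apaf1. In the same fits the log2 fold change of Pltp was 0.0347 and 0.0369, and the log2 fold change of Xpc was -0.0472 and -0.0439. Leaving out each library in turn, the range was -0.050 to 0.143 for Aen, -0.69 to 0.173 for Bax, -0.049 to 0.30 for Ddb2, -0.032 to 0.35 for Fas, -0.36 to 0.28 for Fdxr, -0.101 to 0.23 for Phlda3, -0.40 to 0.079 for Pltp, -0.084 to 0.158 for Ppm1d, -0.31 to 0.34 for Psrc1, -0.25 to 0.27 for Rps27l, -0.25 to 0.0037 for Sesn1, -0.065 to 0.121 for Tnfrsf10b, -0.22 to 0.109 for Trp53 and -0.050 to 0.22 for Xpc.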

Other observations

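Members whose RefSeq promoter window held a p53 decamer without a mismatch did not stand apart in their response, by description. The median log2 fold change was 0.013 over the 12 tested members with a decamer, 7 of them positive (48.2% of all genes). It was 0.072 over the 16 with a window and no decamer, 9 of them positive. Over the 7 without a window it was 0.121, 6 of them positive. An unadjusted limma p under 0.05 (5.77% of all genes) was found for 2 members with a decamer, Ccng1 and Gadd45a, in opposite directions. It was found for 3 with a window and no decamer (Mdm4, Dglucy and Trp53i11) and for 1 without a window (Trp53inp1). Without irinotecan replicate 1 the medians were 0.120, 0.172 and 0.035, in the same order. No test was made, and sites outside these 300 bases were not searched.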
